A study of Homo sapiens with 8 samples.

Results

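The DUX4 arrays are tandem repeats near the ends of chromosomes 4 and 10, called D4Z4 macrosatellites, in which each unit carries a copy of the DUX4 reading frame. Their members here were all CpGs listed in hg19 chr4:190985000-191012000 and chr10:135475000-135504000, chosen by position alone. These were 3084 CpGs, 1693 on chromosome 4 and 1391 on chromosome 10, of 3209182 CpGs listed in the study. DNA came from HUES64, an established human embryonic stem cell line with the genotype given as DNMT1 knockout. Methylation was read by reduced representation bisulfite sequencing (RRBS), which sequences the CpG-rich part of the genome after bisulfite has changed unmethylated cytosines, on days 0 to 7 of the withdrawal of DNMT1*, with 1 library per day. All 8 libraries share the line and the genotype, so day 0 is the start of the course and not an untreated control. The labels do not say what DNMT1* is, how it was withdrawn, or how many cultures or clones the libraries came from.

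DUX4 is a transcription factor with a pair of homeodomains that is active in the cleavage-stage embryo and switches on early embryonic genes and some repeats. In most other cells the array is packed as repressive chromatin, and its CpGs carry methylation. Loss of this repression in muscle, after shortening of the chromosome 4 array or loss of chromatin factors, underlies facioscapulohumeral dystrophy. The chromosome 10 array is a close copy of the one on chromosome 4. DNMT1 is the enzyme that copies CpG methylation to the new strand after replication. The data hold DNA methylation alone and no RNA, so nothing here measures DUX4 expression.

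The DUX4 promoter is shown because the spacing of its CpGs tied the listed positions to the gene. The 300 bases from RefSeq, GRCh38.p14 chr4:190173524-190173823 on the plus strand, end shortly after the gene start. Gene start here is the annotated start, where the sequence reads atg directly after CGCG. Where transcription starts was not measured. Capitals mark the 21 of its 25 CpGs whose spacing was found in the arrays.

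DUX4 promoter: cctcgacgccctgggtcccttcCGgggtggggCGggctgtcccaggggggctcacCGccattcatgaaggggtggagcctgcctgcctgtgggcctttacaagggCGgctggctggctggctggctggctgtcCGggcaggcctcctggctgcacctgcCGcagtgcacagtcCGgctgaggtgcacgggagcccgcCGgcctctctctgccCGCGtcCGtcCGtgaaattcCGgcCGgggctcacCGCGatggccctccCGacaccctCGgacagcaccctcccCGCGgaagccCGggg

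The sequence held 7 CCGG motifs, counted on 1 strand because CCGG reads alike on both. CCGG is the site of MspI, the enzyme commonly used for RRBS. Of 35116 RefSeq promoters of this length, 63.1% held at least 1 CCGG and 5.78% held 7 or more. The 25 CpGs compare with a median of 14 per promoter, and 32.0% of promoters had 25 or more.

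The listed positions formed repeat arrays, as labelled. On chromosome 4, the spacing at which most CpGs met another listed CpG was 3293 bp, found for 667 of 1469 CpGs (45.4%). On chromosome 10 it was 3310 bp, for 602 of 1176 (51.2%). No single length served a whole array. When each CpG was matched to the next unit by the spacing of its neighbours, 95.7% and 97.1% found a partner, at distances of 3291 to 3300 bp on chromosome 4 and 3299 to 3310 bp on chromosome 10. The promoter's CpG spacing was found 13 times, 7 times on chromosome 4 and 6 times on chromosome 10. Each match held 21 CpGs, after the length between the outer parts of the window had been allowed to differ by 4 bp. The 7 gene starts on chromosome 4 lay from 190989090 to 191008860, and the 6 on chromosome 10 from 135480655 to 135497182. The 6 distances between successive starts on chromosome 4 equalled the 6 distances between 7 neighbouring RefSeq DUX4L genes, the annotated array copies of DUX4, from DUX4L8 to DUX4L3. In all, 2985 of the 3084 CpGs (96.8%) were given 1 of 223 places, written as the distance in bp from the gene start, with a minus sign upstream. The number of units in this cell line was not measured: 7 and 6 complete copies are those matched inside the 2 hg19 regions. RefSeq held 8 of these DUX4L genes on chromosome 4. The last of them, DUX4L2, follows DUX4L3 and had no match inside the region.

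Depth decides what these values can show. Read calls at CpGs ranged from 77691782 to 161534152 in the 5 deep libraries (days 0, 1, 2, 6 and 7) and from 12359218 to 15156251 in the 3 shallow ones (days 3 to 5). The shallow libraries had 4 reads at the median CpG, and their values for single CpGs carry little weight. Levels below rest on the 2692 array CpGs, 1450 and 1242, with 10 or more reads in each of the 5 deep libraries and 1 or more in each shallow one. The other 392 were under these minimums, and 1017 CpGs had 10 or more reads in every library.

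Both arrays began highly methylated and lost most of it. The chromosome 4 array, as the mean level over its CpGs, stood, in order from day 0, at 81.6%, 78.6%, 71.7%, 52.7%, 35.1%, 28.0%, 16.2% and 13.0% on day 7. The chromosome 10 array read 82.1%, 79.0%, 72.4%, 53.8%, 36.0%, 28.2%, 16.5% and 12.9% on the same days. Each day was lower than the day before it in both arrays. On day 7 the arrays kept 16.0% and 15.8% of their day 0 level. Read sampling adds an error of up to 0.163 points to such a mean in the deep libraries and of up to 0.545 points in the shallow ones. This covers the sampling of reads only, since there was 1 library per day.

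**Figure D1:**
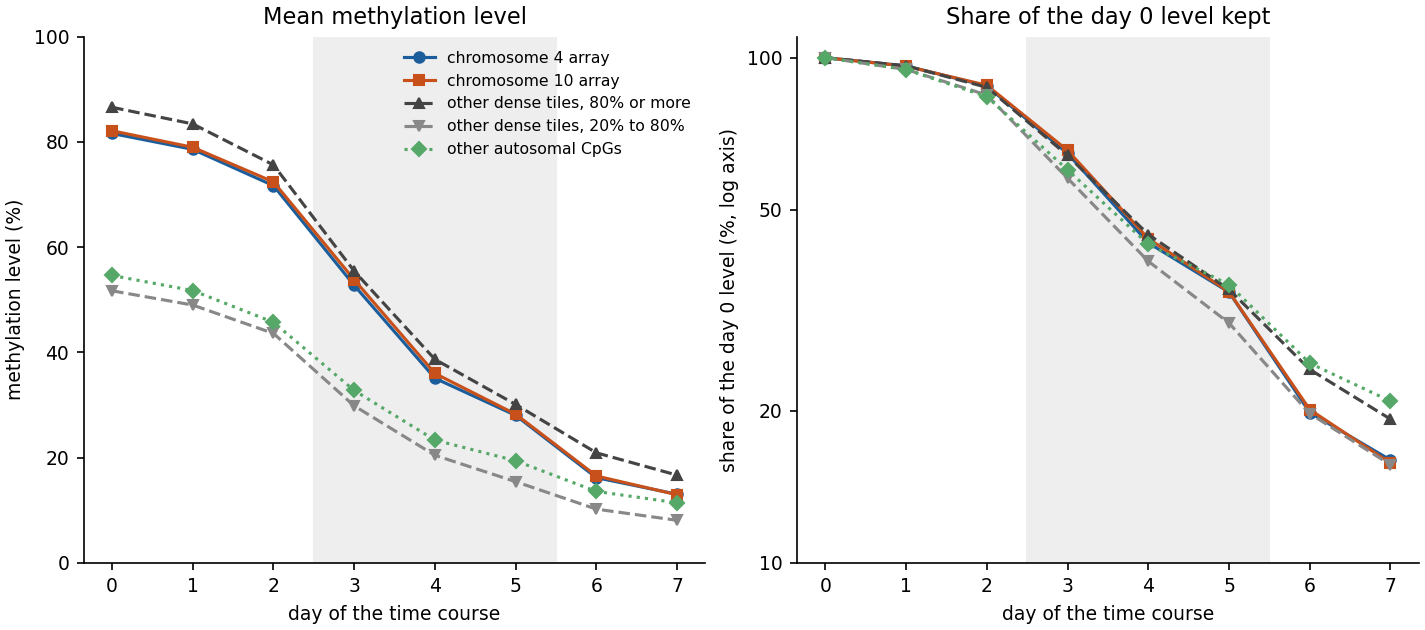
Left, mean methylation level (%) by day for the arrays of chromosomes 4 and 10, other CpG-dense tiles in 2 starting classes and other autosomal CpGs. Right, the same as a share of the day 0 level on a log axis. Grey marks the shallow days 3 to 5. The 2 array lines lie nearly on each other throughout, and on days 6 and 7 they keep a smaller share than dense tiles that started at 80% or more.

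Loss was slow at first. The chromosome 4 array fell by 3.02 points from day 0 to day 1 and by 6.90 points from day 1 to day 2, and kept 87.8% of its starting level on day 2. It then fell by 19.0 points to day 3 and by 17.6 points to day 4. From day 6 to day 7 it fell by 3.15 points, which left 80.6% of the day 6 level. The fitted slope was -11.2 ± 0.836 (SE) points per day on chromosome 4 and -11.3 ± 0.822 on chromosome 10. Both had an exact two-sided permutation p of 4.96e-05, the smallest that 8 days can give, and 0.000124 after adjustment over 10 trends. The test asks only whether levels follow the order of the days. A drift between libraries that followed the days and the withdrawal cannot be told apart.

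No difference in course between the 2 arrays was detected. Chromosome 4 minus chromosome 10 was -0.51 points on day 0, with a counting error of 0.147. The slope of this difference was 0.0747 ± 0.0564 points per day (exact permutation p = 0.233, adjusted 0.389). On the natural log scale, which compares rates, it was 0.000299 ± 0.00179 per day (exact permutation p = 0.874, adjusted 0.874).

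Single CpGs followed the same course almost without exception. On days 0 and 1 pooled, 905 of 1450 chromosome 4 CpGs and 781 of 1242 chromosome 10 CpGs stood at 80% or more, and 474 and 419 stood between 60% and 80%. Only 10 CpGs on chromosome 4 and 0 on chromosome 10 began at 20% or less. By days 6 and 7 pooled, 1307 and 1131 CpGs were at 20% or less, and 2 in each array were above 30%. The level was lower at the end in 1449 of 1450 and in 1242 of 1242 CpGs. The 1 exception, at chr4:190990709, had 0 methylated of 109 reads on days 0 and 1 and 0 of 144 on days 6 and 7. Over the 5 deep libraries it had 0 of 330 reads, which allows a share of up to 0.909%. It was the only array CpG at its place in the unit. A thymine in the DNA would read the same way after bisulfite, and whether this line has a CpG there was not tested. Of the 10 low CpGs on chromosome 4, 7 lay at the same place in the unit, 36 bp before the gene start.

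Among CpGs with 100 or more reads, those that ended highest were still far below their start. On chromosome 10, the CpG at 135489098 was at 87.7% of 106 reads at the start and 30.3% of 119 reads at the end. On chromosome 4, the CpG at 190990177 was at 84.5% of 142 reads and then 29.6%.

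**Figure D2:**
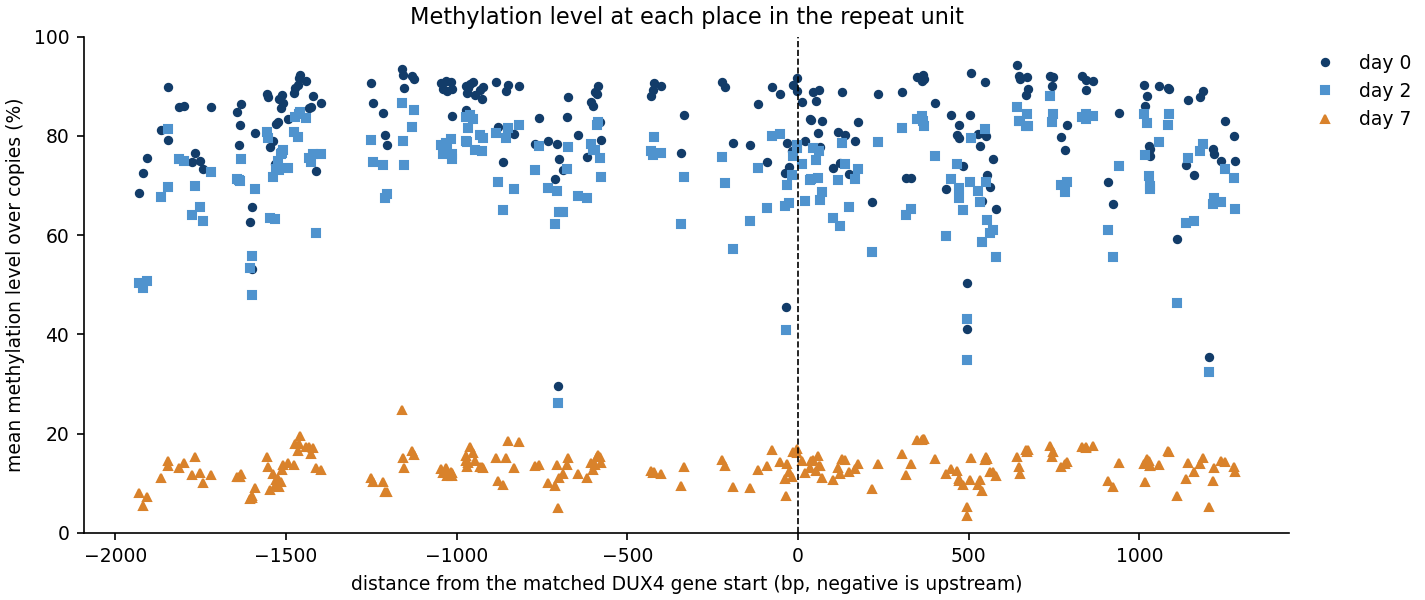
Mean methylation level (%) over the copies of each place in the repeat unit on days 0, 2 and 7, against distance from the matched DUX4 gene start (bp). Places with 5 or more copies in both arrays together are drawn. A few places stand well below the rest on day 0, and the same places are among the lowest on day 7.

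Within the unit, with places matched by local spacing, copies of a place differed on day 0 by little more than counting error, and places differed more. On day 0, copies of 1 place differed with an SD of 3.83 points on chromosome 4, where counting alone gives 3.57. On chromosome 10 the SD was 3.40 points, and counting alone gives 3.42. Places differed from each other with an SD of 11.2 and 9.71 points. On day 7 copies differed by 3.64 and 3.08 points (counting alone, 3.56 and 3.37), and places by 3.28 and 3.38 points. Between successive units, levels at the same place had a Pearson r of 0.90 on chromosome 4 (1147 pairs) and 0.89 on chromosome 10 (985 pairs) on day 0, and of 0.36 and 0.48 on day 7. These are descriptions across CpGs that share libraries, sequence and possibly reads. With a single fixed unit length, the spread among copies on day 0 was 6.28 and 4.50 points, and among places 10.8 and 9.79 points. When such places were joined within 2 bp, copies differed by 9.11 and 7.62 points and places by 8.77 and 7.89. The small spread among copies therefore holds for the matching by local spacing, which was added after the data were seen.

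A few places began low in nearly every unit. The place 702 bp before the gene start stood at 29.6% of 6753 pooled reads on day 0 and 5.02% on day 7, and its 14 copies ranged from 21.6% to 32.2% on day 0. The place 1204 bp after the start had 35.5% of 4569 reads and then 5.15%, with the lowest copy at 31.9%. At 496 bp after the start the level was 41.1% and then 3.43%, and its neighbour at 494 bp stood at 50.4% and then 5.23%. No copy of the first 2 places reached the mean of its array. At the other end, the place 641 bp after the start was the highest on days 0 and 1, at 92.9% of 448 reads, and ended at 19.6% of 474 reads on days 6 and 7.

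Places that began low kept a similar or somewhat smaller share. Of the 8 places under 60% at the start, 1 stood at 0% and has no share. The others include the place 36 bp before the gene start, where the 2 arrays differed. These others kept a median of 16.0% of their starting level on days 6 and 7. The median was 15.6% for the 10 places between 60% and 70%, and 17.5% for 65 places between 70% and 80%. It was 17.6% for 108 places between 80% and 90%, and 21.3% for 21 places at 90% or more. The highest class thus kept the largest median share. Start and end levels had an r of 0.76 over 212 places, as a description of places that share libraries. Start level and share kept had an r of 0.36. The highest places at the end were 1159 bp before the gene start, at 26.6% of 335 reads (7 copies), 1458 bp before it, at 21.4% of 1988 reads (12 copies), and 673 bp after it, at 21.2% of 1020 reads (12 copies). Across 300-bp stretches of the unit, mean day 0 levels over CpGs ran from 77.2% to 88.2%, and the share kept on day 7 from 13.9% to 17.6%.

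**Figure D3:**
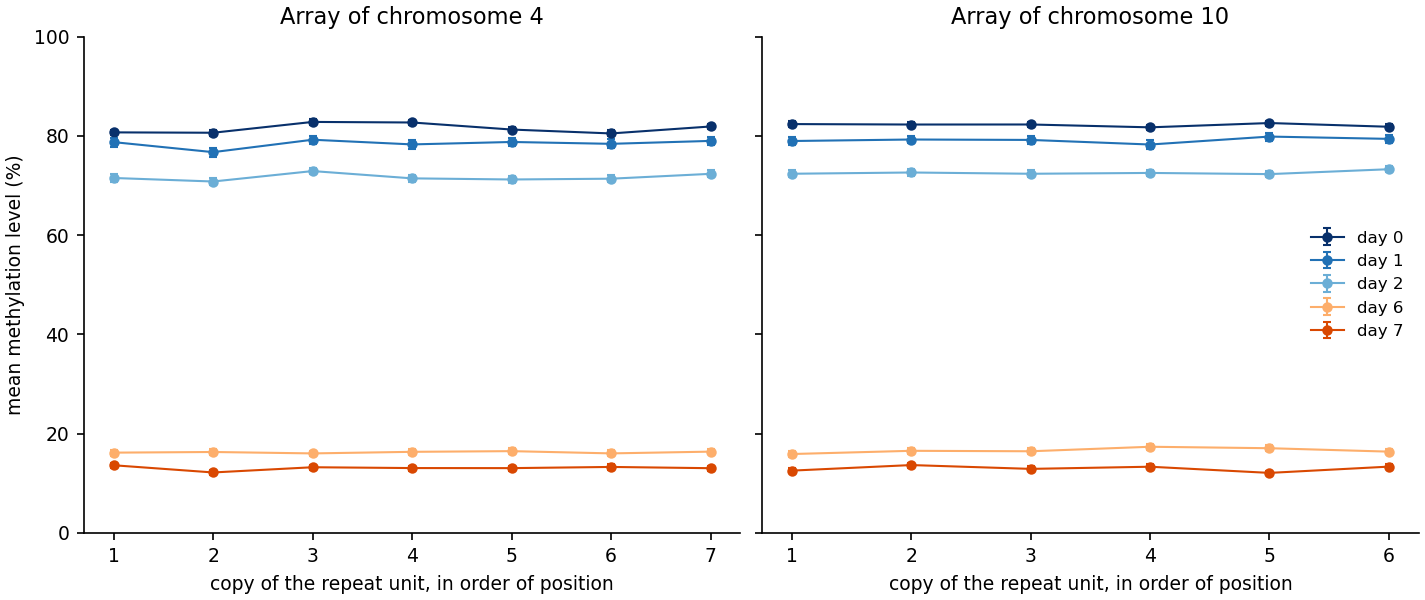
Mean methylation level (%) of each complete copy of the unit in order of position, on the 5 deep days; bars are 2 counting errors. The lines are nearly flat: copies range from 80.5% to 82.8% on day 0 and from 12.1% to 13.7% on day 7 over both arrays.

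Along the arrays the units differed by few points, and on days 0 and 7 their SD was above the mean counting error. The 7 complete units of chromosome 4 ranged from 80.5% to 82.8% on day 0, with an SD of 0.98 points against a mean counting error of 0.281. The 6 units of chromosome 10 ranged from 81.7% to 82.6%, with an SD of 0.334 against 0.266. On day 7 the ranges were 12.2% to 13.6% and 12.1% to 13.7%. The SDs were then 0.444 points on chromosome 4 against 0.259, and 0.587 on chromosome 10 against 0.241. On day 6 the SD on chromosome 4 was 0.177 points, below its counting error of 0.29, and on chromosome 10 it was 0.523 against 0.276. Complete units did not hold the same array CpGs, with 170 to 201 in each, and counting error does not cover this. Reads from near-identical units may be placed at any of them, and how the aligner treated such reads is not given in the sources used here. Whether real differences between units were evened out in this way was not tested.

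Over the DUX4 promoter window the 2 arrays differed at the start. On day 0 the window stood at 79.6% on chromosome 4 and 84.4% on chromosome 10. The 7 chromosome 4 copies ran from 77.8% to 81.3% and the 6 chromosome 10 copies from 82.9% to 85.5%, so the copies did not overlap. On day 1 the copies overlapped slightly, with those of chromosome 4 reaching 78.75% and those of chromosome 10 beginning at 78.67%. On day 2 the levels were 67.4% and 73.1%, and the copies came close without overlapping. On day 7 they were 13.5% and 13.0%, and the copies overlapped widely. Outside the window the arrays were alike, at 81.8% and 81.9% on day 0. No test was made, since copies in 1 library are not replicates.

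The difference sat in a cluster of CpGs just before the gene start. At 36 bp before it, chromosome 4 read 13.2% of 865 reads on day 0, with a Wilson 95% interval of 11.1% to 15.6%. Its levels on days 1, 2, 6 and 7 were 9.48%, 11.8%, 3.70% and 2.22%. Chromosome 10 read 83.3% of 951 reads on day 0 (80.8% to 85.5%), and then 84.1%, 74.9%, 18.3% and 13.5%. The copies did not overlap on any deep day: on day 0 those of chromosome 4 reached 17.3% at most and those of chromosome 10 fell to 80.4% at least. From its own start, this CpG kept 16.8% on chromosome 4 and 16.2% on chromosome 10 by day 7.

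Its neighbours differed less. At 38 bp before the start the day 0 levels were 62.5% on chromosome 4 and 83.9% on chromosome 10. At 28 bp they were 63.5% and 85.8%, and at 32 bp 72.5% and 85.8%. The next matched CpG after 28 bp, at 18 bp before the start, was also lower on chromosome 4. Its levels were 62.5% of 104 reads and 81.9% of 587 reads, but the copies overlapped. Further out the arrays were alike: at 53 bp before the start the levels were 89.2% and 87.5%, and at 14 bp 90.1% and 90.3%. After the gene start chromosome 4 was the higher in pooled reads, but copies of the 2 arrays overlapped at all 5 CpGs there. At 19 bp the levels were 80.6% and 72.7%, with copies from 71.3% to 93.4% and from 67.3% to 75.9%. Over the part of the window from the gene start on, the means were 87.4% and 80.6%.

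**Figure D4:**
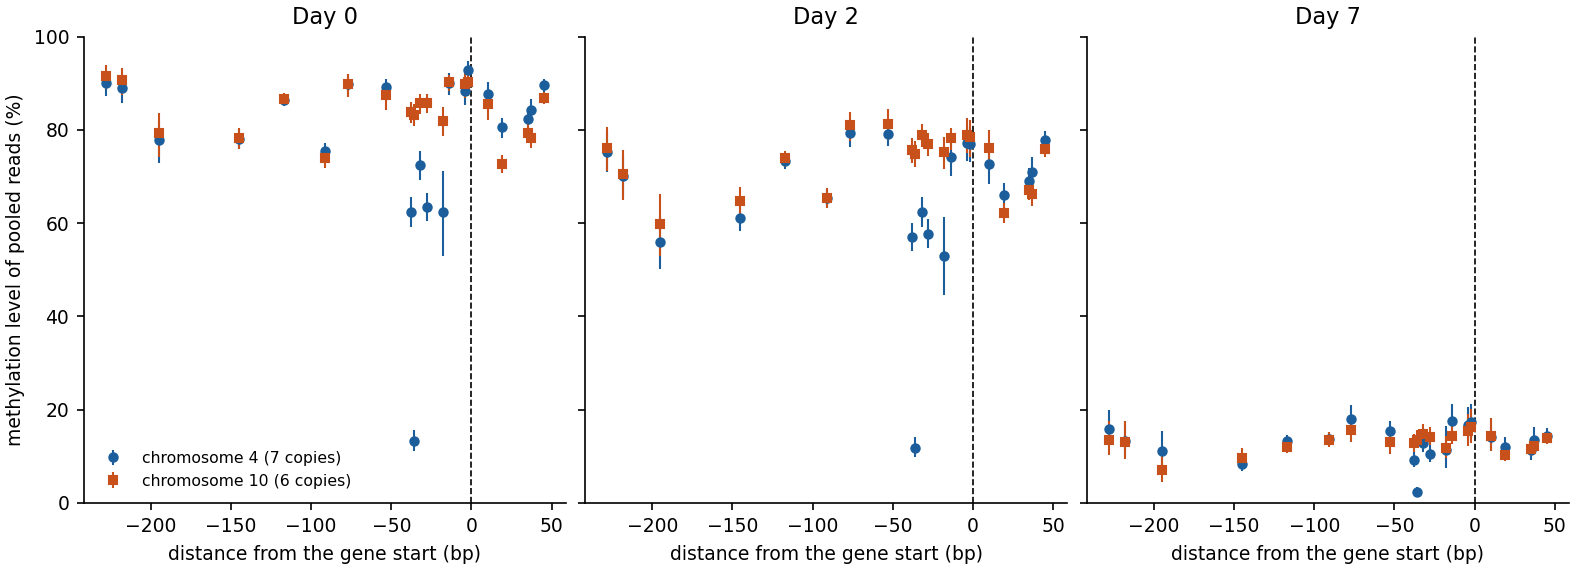
Methylation level (%) of each promoter CpG by distance from the gene start (bp) on days 0, 2 and 7, with reads pooled over the 7 copies on chromosome 4 and the 6 on chromosome 10; bars are Wilson 95% intervals. One CpG, 36 bp upstream, is at 13.2% on chromosome 4 and 83.3% on chromosome 10 on day 0, and 4 neighbours are lower on chromosome 4.

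In bisulfite reads, a thymine in the DNA and an unmethylated cytosine read alike. A base difference between the arrays or between copies and a lack of methylation therefore cannot be told apart in these files. The GRCh38 promoter printed above has a CG at each of these places, the one 36 bp before the gene start included. That is 1 copy of another build and not this cell line. No hg19 sequence was used here, so the bases of the array copies were not examined.

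Such differences were rare elsewhere in the unit. Of 173 places with 5 or more copies in each array, the copies did not overlap on day 0 at 5 places with chromosome 4 lower (2.89%) and at 2 with chromosome 10 lower (1.16%). The 5 were the 4 just named, from 38 to 28 bp before the gene start, and 1 at 758 bp before it. The 2 with chromosome 10 lower lay 864 bp and 1845 bp before it. The places were counted after their values were seen, and these percentages are shares of all places compared. The median size of the difference over the 173 places was 1.14 points on day 0 and 1.04 points on day 7. At 4 places it was over 15 points on day 0, and 3 of these were in the promoter cluster. The other, 1845 bp before the gene start, stood at 89.2% on chromosome 4 and 72.1% on chromosome 10, with 332 and 8761 pooled reads. Without these 4 places the arrays were at 82.1% and 82.1% on day 0, and the promoter windows at 85.4% and 84.4%.

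By day 2 the promoter window had lost slightly more than the mean of the other CpGs. It kept 85.7% of its day 0 level over both arrays, against 88.3% outside it. The window kept less than the rest of the same unit in 10 of 13 copies on day 2 and in 5 of 13 on day 7. On day 7 the shares were 16.2% and 15.8%. The window was not the stretch that lost most by day 2. By 300-bp stretches, that from -2000 to -1701 bp of the gene start kept 83.3% and that from -500 to -201 bp kept 84.3%, against 86.2% from -200 to 99 bp.

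The arrays were read more deeply than other CpG-dense sequence. Listed CpGs numbered 66.6 per kb on chromosome 4 and 66.3 on chromosome 10, and 46 of the 48 array tiles of 1 kb held 40 or more. On day 0 the arrays had 157 and 179 reads per listed CpG, where the median of 10615 other autosomal tiles with 40 or more CpGs was 47.9. The ratios were 3.27 and 3.75, and over all days they ran from 2.81 to 3.28 and from 3.18 to 3.83. Both arrays were above the 99th percentile of those tiles on every day, with a lowest value of 99.2. Of the 48 array tiles, 47 had more reads per CpG on day 0 than that median. The lone exception, chr10:135499001-135500000, was the edge tile with 4 CpGs and 154 reads. How many units this line carries, and how reads of near-identical copies were placed, was not measured.

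**Figure D5:**
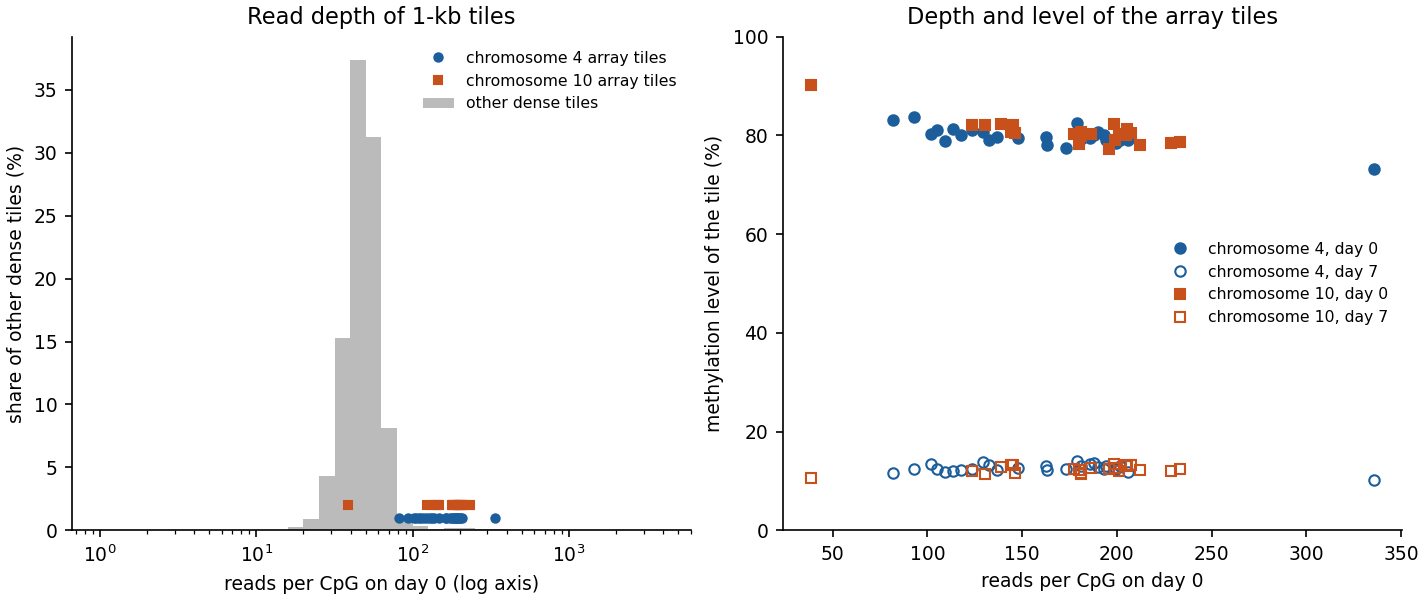
Left, reads per CpG on day 0 (log axis) of 10615 other CpG-dense tiles as a histogram, with the 48 array tiles as points at an arbitrary height. Right, reads per CpG against methylation level (%) of the array tiles on days 0 and 7. All but 1 array tile lie above the dense median of 47.9, and the deepest array tile is the lowest on day 0, at 73.3%.

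Deeper array sequence was somewhat less methylated at the start. The 1353 array CpGs with 130 or fewer reads on day 0 began at 85.0%, and the 1339 with more began at 78.6%. They kept nearly equal shares on day 7, at 15.8% and 15.9%. Across the 48 tiles, depth and level on day 0 had an r of -0.71, as a description of tiles that share 1 library and the repeat.

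A group of 4 neighbouring CpGs stood apart in depth. At chr4:191003212, 191003226, 191003234 and 191003237, day 0 gave 2530, 2377, 2360 and 1984 reads, with levels of 81.1%, 67.6%, 60.4% and 53.8%. On day 7 the levels were 10.1%, 8.01%, 8.78% and 6.88%. They had no partner in any other unit, and they held 44.4% of the reads of their tile on day 0. That tile, chr4:191003001-191004000, read 73.3% with them and 78.7% without. The array level moved only from 81.6% to 81.7%. On chromosome 10 the deepest CpGs were 7 copies of 1 place, 1845 bp before the gene start, with 1218 to 1304 reads each on day 0 and levels from 70.5% to 73.3%.

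All 48 array tiles could be tested for a trend over days, and 48 fell, 26 on chromosome 4 and 22 on chromosome 10. The largest adjusted p was 7.05e-08, from quasi-binomial regression with limma's moderation. This count says nothing particular about the arrays: 88% of 214167 autosomal tiles fell, as did 100% of those that began at 80% or more and 100% of those between 20% and 80% (96008 of 96021). Among tiles with 40 or more CpGs the share was 26.1%, since 8774 of the 10615 outside the arrays began at 20% or less. In the other direction, 0 array tiles rose, and 0.000467% of all tiles did.

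Tile levels on day 0 ran from 73.3% to 90.3%, and on day 7 from 10.2% to 14.0%. On chromosome 4, the largest shares of the starting level on days 6 and 7 were 18.8% (chr4:191009001-191010000), 18.6% (chr4:190989001-190990000) and 18.5% (chr4:190993001-190994000). The smallest were 15.7% (chr4:190997001-190998000), 15.8% (chr4:191003001-191004000) and 16.1% (chr4:191007001-191008000). On chromosome 10 they were 18.9% (chr10:135490001-135491000), 18.4% (chr10:135484001-135485000) and 18.4% (chr10:135491001-135492000). The smallest there were 13.7% in the thin edge tile, 15.8% (chr10:135479001-135480000) and 16.4% (chr10:135493001-135494000). Apart from the edge tile, tiles of 1 array thus differed by about 3 points of the share kept.

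Against other CpG-dense tiles the outcome depended on which tiles were taken. The pooled reads of the arrays on days 0 and 1 were 78.2% and 79.1% methylated, which put both in the class between 20% and 80%. The 561 dense tiles of that class began much lower, at 51.7%, and ended at 8.08%, 15.6% of the start. Log slopes minus this class were 0.00436 ± 0.0087 per day for chromosome 4 (exact permutation p = 0.624, adjusted 0.746) and 0.00406 ± 0.00951 for chromosome 10 (exact permutation p = 0.672, adjusted 0.746). With classes nearer in starting level, added after the data were seen, the sign turned. On day 0 the tiles between 70% and 90% averaged 85.2%, and those at 80% or more 86.6%. Both means lay above the arrays' pooled reads on that day, 79.3% and 80.1%. What part the starting level had in the sign was not tested. Against 1362 dense tiles that began between 70% and 90%, the differences were -0.0238 (exact permutation p = 0.0312) and -0.0241 (p = 0.0408) per day. Against the 1280 at 80% or more they were -0.0284 (exact permutation p = 0.012) and -0.0287 (p = 0.0163). These p-values were not adjusted.

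The gap to the nearer class opened after day 5. On day 2 the arrays kept 87.8% and 88.2%, where the median of the 1362 tiles was 87.4%. On day 5 they kept 34.3% and 34.4%, against 34.4%. On day 6 they kept 19.8% and 20.1%, against 24.3%, and on day 7 16.0% and 15.8%, against 19.3%. From day 5 to day 6 the arrays kept 57.8% and 58.4% of the previous level, and these tiles as a mean 68.7%. From day 6 to day 7 the values were 80.6%, 78.4% and 79.4%. Day 5 was a shallow library and day 6 a deep one, and the part of depth in this step was not tested. The shares kept on days 0, 2, 6 and 7 rest on deep libraries alone. By tile, all 48 array tiles kept less on days 6 and 7 than the median of these dense tiles, 21.9%, and 25 kept less than their lower quartile, 17.6%. In each array the share lay inside the range of ordinary dense tiles, at percentiles 29.5 and 27.6 on day 7.

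The sequence before the arrays fell too, and how it compared depended on how much of it was taken. In the 50 kb before each region, 244 CpGs on chromosome 4 stood at 78.0% on day 0 and 13.1% on day 7, and 105 on chromosome 10 at 76.9% and 11.2%. By day 7 these flanks kept 16.8% and 14.5% of their day 0 level, and the arrays 16.0% and 15.8%. The slopes below are in points, and the arrays began higher than the flanks, so these slopes do not compare rates. Log slopes against the flanks were not fitted. The arrays minus these flanks had slopes of -0.6 ± 0.233 points per day (exact permutation p = 0.0532, adjusted 0.106) and -0.488 ± 0.449 (exact permutation p = 0.318, adjusted 0.454). With flanks of 100 kb the slopes were -0.582 (exact permutation p = 0.0204) and -1.62 (p = 0.00139). With 20 kb, which held 9 and 11 CpGs, they were -2.42 (exact permutation p = 0.0195) and -1.39 (p = 0.206). Without the library of day 5 they were -0.677 (exact permutation p = 0.0442) and -0.739 (p = 0.024). Without that of day 4 they were -0.57 (exact permutation p = 0.0373) and -0.479 (p = 0.366). On the deep days alone they were -0.627 (exact permutation p = 0.0417) and -0.746 (p = 0.15). When day 0, 1, 2, 3, 6 or 7 was left out, neither array passed 0.05. All p-values of these alternatives are unadjusted. Autosomal CpGs outside the arrays, 2199268 by the same minimums, went from 54.6% to 11.4% and kept 20.9%.

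The tiles most like the arrays in course were searched among 10023 dense, deeply read tiles. For chromosome 4 the 3 nearest all lay on chromosome 1, at chr1:228767001-228768000, chr1:228776001-228777000 and chr1:228758001-228759000, with root mean square differences of 1.21 to 1.51 points over the 8 days. For chromosome 10 they were chr7:56440001-56441000, the first of those on chromosome 1, and chr15:22545001-22546000, at 1.43, 1.55 and 1.56 points. The median tile differed by 53.6 and 54.1 points. Tiles of every starting level were ranked, and 8774 of the 10615 other dense tiles began at 20% or less. The 2 arrays differed from each other by 0.622 points, less than from any of the tiles ranked. That comparison is not like for like. An array level is a mean over 1450 or 1242 CpGs, and the tiles named here held 44 to 90 CpGs each. A single tile carries more counting error, most of all on the shallow days. The 3 chromosome 1 tiles and the chromosome 7 tile had 319 to 677 reads per CpG on day 0, above either array, and the chromosome 15 tile had 62.9, below both.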

How the data were processed

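Per the labels' protocols, RRBS libraries were made by a published method, with 1 library for each of 8 days. Per the submitters' processing notes the build is hg19, and no aligner, methylation caller or duplicate handling is given in the sources used here. The files that the authors deposited list each CpG with its methylated and total reads, which were used as read counts, and a score, which is the methylated share in thousandths (rounding matched in 100% of lines) and was not used. Starts were changed to count from 1.

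Array CpGs needed 10 reads in each of the 5 deep libraries and 1 in each of the 3 shallow ones, and levels weight CpGs equally. Trends are least-squares slopes over days with exact two-sided permutation over 40320 orders, Benjamini-Hochberg adjusted over 10. Tiles (1 kb, 3 or more CpGs, 10 or more reads per library) were fitted over all autosomes by quasi-binomial regression in Python 3.11.15 and R 4.3.3, with dispersions moderated by limma 3.58.1 and adjustment at 0.05 over 214167 tiles. When tested on simulated data, the planned version without a correlation among reads of a tile called too many tiles, so a common correlation, 0.00968 here, was added. Dense tiles hold 40 or more listed CpGs. Places were planned as position modulo a fixed unit length. Since unit lengths vary, matching by local CpG spacing (150 bp windows, 60% matched) was added after the data were seen and is used throughout. Intervals are Wilson 95% intervals, and a share of 0 is given the limit of 3 reads. Both cover counting error only, since the reads carry no molecular identifiers. Named tiles are the 3 with the largest and the 3 with the smallest share kept on days 6 and 7 in each array; named places and CpGs are those highest or lowest at the start or end with 100 or more reads, and the promoter places, the places that differ between arrays, the other low places and the deepest CpGs were chosen after their values were seen. The members and lists were chosen with earlier results of these data known. Alternatives changed the read minimum, weighting, libraries, tile length, test, density limit, starting class, flank and place matching.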

Additional observations from a re-analysis of the deposited data

How the results depend on the processing

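The 4 trends of the arrays kept their direction and their side of the threshold in 56 of 56 alternatives, with slopes from -11.9 to -10.6 points per day on chromosome 4 and from -12.0 to -10.7 on chromosome 10. The largest p was 0.00833, from an exact permutation of 5 days. Every array tile tested fell in each of 15 alternatives, which tested 13 tiles at 5 kb, 94 at 500 bp, 47 with 10 reads in every library and 48 otherwise. The 12 named tiles fell in all 155 fits made over 13 settings; the edge tile of chromosome 10 could not be tested with 10 reads in every library. No paired analysis was possible because each day has 1 library. Against dense tiles of the starting class, the log slope differences turned sign, to -0.000977 and -0.00209 per day (chromosomes 4 and 10) without day 0, to -0.0113 and -0.0116 with 20 or more CpGs per tile, to -0.0193 and -0.0195 with class limits of 90% and 10%, to -0.0238 and -0.0241 against tiles at 70% to 90%, to -0.0284 and -0.0287 against tiles at 80% or more, and on chromosome 10 to -0.000147 on deep days alone. The cause was not tested. Chromosome 4 minus chromosome 10 on the log scale turned to -0.00223 without day 7 and to -0.00136 over shared places. Chromosome 4 minus its flank passed an unadjusted 0.05 on deep days alone (-0.627 points per day), without day 4 (-0.57), without day 5 (-0.677) and with flanks of 20 kb (-2.42) or 100 kb (-0.582), and chromosome 10 minus its flank without day 5 (-0.739) and with 100 kb (-1.62). Flanks of 20 kb held only 9 and 11 CpGs. Day 4 and day 5 hold too few reads for statements on single CpGs.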
